A study of Rattus norvegicus with 24 samples.

Results

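The comparison described here is the change in gene expression in the hippocampus of undosed rat pups between postnatal day (PND) 7 and PND14. It rests on 6 of the 24 arrays of the series, chosen by their labels alone: 3 hippocampus arrays at PND14 and 3 at PND7. The pups were Long Evans rats labelled male, with no genetic change. Their mothers (dams 1, 7 and 13) received corn oil without Aroclor 1254 by oral gavage once a day from gestation day 6, and 1 pup was taken from each litter at each age, so PND7 and PND14 pups of the same dam are littermates and not the same animal. The series asks how Aroclor 1254, a commercial mixture of polychlorinated biphenyls, acts on the developing brain, and also holds undosed cerebellum at both ages and the same tissues from pups of dams 12, 15 and 18, given 6 mg/kg/day. Those groups serve here for the test of each difference: 6 hippocampus arrays from dosed litters, and 5 cerebellum arrays from undosed litters after the PND14 array of dam 13 was left out. That array had a column median of 7.91 (log2), against 7.42 to 7.48 in the other 23, and entered no normalization or test.

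The rodent hippocampus is still being built at these ages. Its pyramidal neurons are born before birth, but most granule neurons of the dentate gyrus are born after it, from dividing progenitors that settle in the dentate itself. Over the following weeks axons and dendrites extend, excitatory synapses form in large numbers, receptors and ion channels exchange fetal for adult subunits, GABA becomes inhibitory as neurons lower their chloride, oligodendrocytes begin to wrap axons in myelin, and astrocytes mature. Rat pups open their eyes and begin to explore near the end of this window.

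Each array reports a log2 expression value per probe set, a group of short probes to a transcript. After control probes and probe sets of low signal were set aside, 10330 probe sets were tested with limma, and 7474 genes with 1 symbol were represented by their brightest probe set. A gene is said to have risen or fallen where its limma p-value, adjusted over all 10330 probe sets, was under 0.05. The 6 arrays correlated with r of 0.989 to 0.992 within an age and 0.952 to 0.963 between ages. Markers fitted the labelled tissue: Prox1, a transcription factor of dentate granule cells, lay at 8.51 to 8.83 in the 6 hippocampus arrays and at 7.44 to 7.79 in undosed cerebellum, and Gabra6, a GABA receptor subunit of cerebellar granule cells, at 6.03 to 6.58, below the 40th percentile of an array (6.89). Xist, the RNA that silences an X chromosome in females, went against the sex label in 4 of the 23 arrays. It was 9.07 in the PND14 hippocampus array of dam 1 and 9.72 in the PND7 hippocampus array of dam 13, against 3.99 to 4.27 in the other 4 of the 6, and it was also high in the cerebellum arrays of the same litters and ages. Counts are therefore also given without these 4 arrays, which leaves 2 hippocampus pups per age. Values below are log2, listed in the order of dams 1, 7 and 13, and each change carries its standard error from limma (SE, 3 arrays per age). Where an age lies below the 40th percentile of an array, the size of a change is uncertain, whether or not this is said again.

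From PND7 to PND14 myelin, synaptic and energy genes were among those that rose in the hippocampus, and genes of dividing cells, young neurons, ribosomes and connective tissue were among those that fell. Of 7474 genes, 1139 rose (15.2%) and 1232 fell (16.5%). Most changes were small: the median size over called genes was 0.40 on the log2 scale, while 69 genes rose more than 2-fold (0.923% of genes tested) and 39 fell more than 2-fold (0.522%). The median change over all genes was -0.001, and the quantile normalization, which gives all arrays the same distribution, bears on this balance: of called probe sets 1536 were higher (14.9%) and 1750 lower (16.9%), against 1343 and 1802 with the values as deposited. For 1890 genes (25.3%) all 3 PND14 arrays lay above all 3 PND7 arrays, and for 1995 (26.7%) they lay below. Without the 4 arrays of high Xist, 1998 probe sets were called in place of 3286 (31.8% of those tested), of which 980 were higher and 1018 lower. Of the 2366 called genes still tested there, 1402 kept their call and all 2366 their direction. The tissue was measured whole, so fewer cells of a type and less RNA per cell cannot be told apart.

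**Figure D1:**
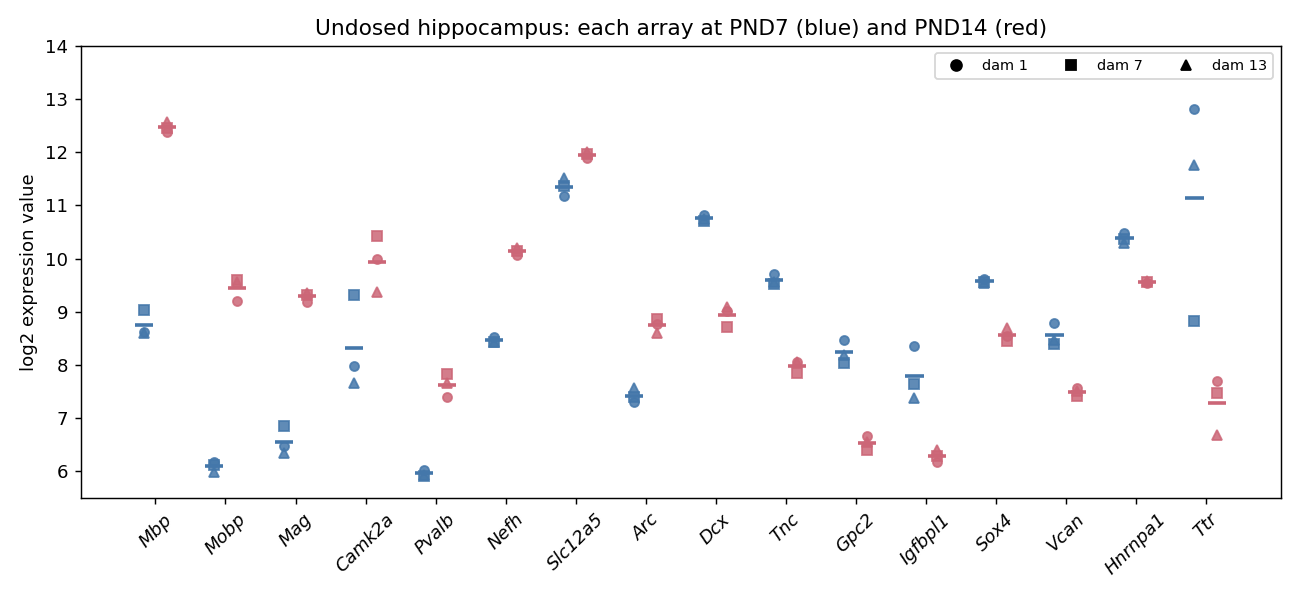
Log2 expression value (vertical axis) of 16 named genes in each of the 6 undosed hippocampus arrays. Blue symbols are PND7 and red symbols PND14, the symbol shape gives the dam, and short lines are group means. Mbp, at 8.60 to 9.04 on PND7 and 12.38 to 12.57 on PND14, moved most among genes that rose, and Ttr was 12.82 and 8.83 in the PND7 arrays of dams 1 and 7.

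Genes that drive cell division fell. Of 43 cell cycle and DNA replication genes tested, 21 fell and 0 rose, beside 16.5% falling among all genes, and the list's median change was -0.37. The means of 11 of the 43 were below the 40th percentile of an array at both ages. Replication factors led. Prim1, the primase that starts each new DNA strand, was 8.43, 8.15 and 8.39 at PND7 and 6.81, 7.39 and 7.63 at PND14. All PND14 arrays were below all PND7 arrays, with the lowest value in dam 1, and the fall was 1.05 ± 0.22 (adjusted p = 0.000919). Mcm6, a subunit of the helicase that opens DNA for copying, went from 7.49, 7.48 and 7.55 to 6.30, 6.49 and 6.61, also without overlap, a log2 change of -1.04 ± 0.15. Rfc3, of the clamp loader, changed by -0.78 ± 0.08, and Racgap1, needed for the final split of daughter cells, by -0.77 ± 0.15. Top2a, which untangles chromosomes, fell by 0.55 ± 0.17, whereas the proliferation marker Mki67 had a change of -0.32 ± 0.18 that did not pass (adjusted p = 0.174). The Mki67 means of 6.54 and 6.21 were both below that percentile, so the size of its change is uncertain. Without the arrays of high Xist 13 of 43 fell, and Top2a was no longer called there. The other tested Top2a probe set had a change of -0.16 ± 0.12 and was not called.

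Promoters of a pair of these genes are shown for the letters they hold. The windows are the 250 bases before each annotated start, from RefSeq on GRCr8, and a search of 19 motifs on both strands was made over members of 9 gene lists, after their calls were known. Of the 19 fallen cell cycle genes with a window, 13 held CCAAT (68.4%) against 34.3% of the 27457 genes in the table, and 8 held TTTGAA (42.1%) against 16% of all genes. In the promoter searches all genes means the RefSeq genes of that table, tested on the arrays or not. Shares over the tested genes alone were not computed. CCAAT is the core of the site bound by the factor NF-Y, and TTTGAA is the core of the cell cycle homology region found in genes switched on late in the cycle. A match is a run of letters and not a measured binding site. Cdk1, the kinase that starts mitosis, and Ccnb2, a cyclin that activates it, are printed because both hold several copies of both motifs; these 2 genes were chosen after their values were seen. Capitals mark CCAAT, its reverse ATTGG, and TTTGAA.
Cdk1 (chr20:19265043-19265292, plus strand): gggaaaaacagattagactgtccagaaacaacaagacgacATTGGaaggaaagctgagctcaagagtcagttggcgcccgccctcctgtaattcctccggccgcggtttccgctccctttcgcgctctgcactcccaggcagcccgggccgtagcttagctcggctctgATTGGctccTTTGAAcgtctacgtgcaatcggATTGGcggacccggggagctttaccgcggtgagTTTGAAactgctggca
Ccnb2 (chr8:79981659-79981908, minus strand): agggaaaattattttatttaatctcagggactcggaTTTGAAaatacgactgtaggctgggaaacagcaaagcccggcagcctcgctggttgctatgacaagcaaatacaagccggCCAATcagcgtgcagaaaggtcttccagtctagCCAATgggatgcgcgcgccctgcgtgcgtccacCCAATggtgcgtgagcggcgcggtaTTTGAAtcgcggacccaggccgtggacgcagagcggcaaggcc
Cdk1 was 7.77, 7.45 and 7.51 at PND7 and 7.05, 6.90 and 6.94 at PND14, and Ccnb2 went from 6.66, 6.24 and 6.44 to 5.73, 5.63 and 5.97. Neither gene's ages overlapped, and the changes were -0.61 ± 0.17 and -0.67 ± 0.19. Ccnb2 was below the 40th percentile of an array in all 6 arrays and passed the filter through other groups. The motif shares were not particular to cell cycle genes: CCAAT was in 69.2% of fallen splicing and chromatin genes and 71.4% of fallen cholesterol synthesis genes, and ranged from 20.0% to 71.4% over the 9 lists. GGGCGG, the site of the general factor Sp1, was also in 13 of the 19 (68.4%), against 32.4% of all genes and 25.0% to 85.7% over the 9 lists. TTTGAA ranged from 0% to 25.0% in the other lists, which hold 7 to 26 windows each.

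Markers of neural stem cells and of young, migrating neurons fell as well. Of 18 radial glia and stem cell genes, 9 fell and 0 rose (median -0.33). Tnc, a matrix protein of germinal zones, was 9.72, 9.52 and 9.56 at PND7 and 8.06, 7.84 and 8.05 at PND14, well apart, a fall of 1.61 ± 0.28 (adjusted p = 0.000203). Vim, the intermediate filament of radial glia, changed by -0.88 ± 0.15, Sox3, a factor that keeps progenitors undifferentiated, by -0.82 ± 0.12, and Fabp7, a fatty acid binding protein of radial glia, by -0.81 ± 0.23. Nes, another progenitor filament, fell by 0.35 ± 0.10, a call lost without the arrays of high Xist, where 7 of the 18 fell.

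Of 30 genes of immature and migrating neurons, 22 fell and 0 rose (median -0.45), and 18 fell without the arrays of high Xist. Dcx, a microtubule protein of migrating neurons, stood at 10.82, 10.71 and 10.75 on PND7 and at 9.02, 8.71 and 9.09 on PND14. The ages were far apart and the arrays of an age close together; Dcx fell by 1.82 ± 0.13 (3.53-fold lower, adjusted p = 7.28e-09). Igfbpl1, a secreted protein of newborn neurons, was 8.35, 7.65 and 7.38 and then 6.18, 6.29 and 6.40, with the PND7 array of dam 1 highest and no overlap, a change of -1.5 ± 0.17. Cd24, a surface protein of young neurons, changed by -1.29 ± 0.11, and Dpysl3, which works in growth cones, by -1.20 ± 0.19. Sox4 and Sox11, sister transcription factors of differentiating neurons, fell together by 1.01 ± 0.11 and 1.00 ± 0.15. Gap43, a growth cone protein, fell by 0.37 ± 0.13 (adjusted p = 0.0326), and that call was lost when 4 of the 6 arrays were left out one at a time. Reln, which guides migrating neurons and later comes from interneurons, fell by 0.50 ± 0.09.

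Other genes among the 15 largest falls belong to none of the groups above. Pafah1b3, a catalytic subunit of a platelet-activating factor hydrolase, was 9.70, 9.43 and 9.60 at PND7 and 8.14, 7.89 and 7.94 at PND14. The ages did not overlap, and it fell by 1.59 ± 0.14 (adjusted p = 1.31e-07). Acot1, a thioesterase that releases fatty acids from coenzyme A, fell by 1.56 ± 0.18, Ppp2r3a, a regulatory subunit of phosphatase 2A, by 1.36 ± 0.22, Ssbp2, a DNA-binding cofactor, by 1.33 ± 0.18, Plppr3, a membrane protein of growing axons, by 1.27 ± 0.14 and Bex4 by 1.26 ± 0.11. Qpct, the glutaminyl cyclase that caps peptides, fell by 1.21 ± 0.18.

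Genes that mark mature excitatory neurons rose. Of 27 pyramidal and dentate granule cell genes, 17 rose and 0 fell (median 0.45), beside 15.2% rising among all genes; 10 of the 17 are also in the postsynaptic, vesicle or calcium lists. Camk2a, the kinase subunit that is a core part of excitatory synapses, was 7.99, 9.32 and 7.65 at PND7 and 10.00, 10.43 and 9.36 at PND14. The PND7 array of dam 7 came within 0.1 of the lowest PND14 array, so the ages just failed to overlap, and the rise was 1.61 ± 0.30 (adjusted p = 0.000355). Wfs1, an endoplasmic reticulum protein enriched in CA1 pyramidal cells, went from 8.10, 8.58 and 8.52 to 9.86, 10.49 and 9.78, a clear separation, and rose by 1.64 ± 0.24. Itpka, an inositol phosphate kinase of dendritic spines, rose by 1.44 ± 0.12 and Hpca, the calcium sensor hippocalcin, by 1.18 ± 0.12. Nrgn, a calmodulin store of spines, rose by 0.61 ± 0.10. Slc17a7, the vesicular glutamate transporter of these neurons, rose by 0.95 ± 0.14, while the transporter of younger neurons, Slc17a6, had a change of -0.34 ± 0.21 that did not pass. The granule cell factor Prox1 had a change of -0.03 ± 0.14.

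The next genes, also among the 15 that rose most, are in none of the lists of cell type markers used here. Wipf3, an actin regulator, was 7.88, 7.89 and 7.67 at PND7 and 9.56, 9.99 and 9.76 at PND14, with no overlap, a rise of 1.96 ± 0.12 (3.89-fold, adjusted p = 7.17e-09). Fibcd1, a receptor that binds chitin and acetylated groups, rose from 6.68, 6.67 and 6.65 to 8.28, 8.46 and 8.29. Its ages did not overlap, and the log2 change was 1.68 ± 0.15. The Fibcd1 mean of 6.67 at PND7 was below the 40th percentile of an array, so the size of its rise is uncertain. Tesc, a calcium-binding regulator of a sodium-proton exchanger, rose by 1.66 ± 0.22, Slc24a2, a sodium/potassium/calcium exchanger, by 1.60 ± 0.19, and Pnlip, known as the pancreatic lipase, by 1.73 ± 0.25. The Pnlip mean of 6.45 at PND7 was also below that percentile.

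Inhibitory neurons gave a mixed picture. Of 16 interneuron genes 5 rose (31.2%) and 2 fell (12.5%), beside 15.2% and 16.5% of all genes (median 0.13). Without the arrays of high Xist 3 rose. Pvalb, the calcium buffer of fast-spiking interneurons, was 6.03, 5.92 and 5.93 at PND7, below the 40th percentile of an array, and 7.39, 7.83 and 7.67 at PND14. All PND14 arrays were above it, and the rise was 1.67 ± 0.20 (adjusted p = 3.23e-06). Kcnc1, the potassium channel that lets these cells fire fast, rose by 0.81 ± 0.25, though not without the arrays of high Xist. Vip, a peptide of interneurons that contact other interneurons, rose by 0.80 ± 0.10 and the peptide Sst by 0.42 ± 0.09. Gad1, which makes GABA, rose by 0.27 ± 0.09, a call also lost without the arrays of high Xist, and Gad2 had a change of 0.34 ± 0.15 (adjusted p = 0.0957). The other tested Gad1 probe set had a change of -0.05 ± 0.15 and was not called. The peptides Npy and Cck had changes of -0.08 ± 0.14 and 0.08 ± 0.09. Reln and Nxph1, a secreted partner of neurexins, are the 2 that fell; Nxph1 was chosen after its values were seen and changed by -0.35 ± 0.09.

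The parts of the synapse rose on both sides of the cleft. Of 34 postsynaptic density genes 19 rose and 0 fell (median 0.36). Arc, a spine protein whose RNA is made on synaptic activity, was 7.30, 7.40 and 7.56 at PND7 and 8.77, 8.86 and 8.60 at PND14. No array of one age reached the other, and Arc rose by 1.32 ± 0.17 (adjusted p = 9.73e-06). Baiap2, an actin organizer of spines, rose by 0.95 ± 0.09, Lin7b, a scaffold protein, by 0.80 ± 0.09, and Dlg4, the scaffold PSD-95, by 0.59 ± 0.11. Without the arrays of high Xist 16 of the 34 rose.

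Of 47 synaptic vesicle and release genes 24 rose and 2 fell (median 0.31), and 22 rose without the arrays of high Xist. Vamp1, a vesicle protein that drives membrane fusion, went from 8.26, 8.37 and 8.26 to 9.64, 9.85 and 9.88, a wide separation, and rose by 1.49 ± 0.10 (adjusted p = 7.28e-09). Syt12, a synaptotagmin, rose by 1.04 ± 0.21, Dnm1, the dynamin that pinches vesicles off, by 1.00 ± 0.10, and Syn1, which tethers vesicles, by 0.58 ± 0.11. The Syt12 means of 5.64 and 6.69 were both below the 40th percentile of an array, so it passed the filter through other groups and the size of its rise is uncertain. Syt4, a synaptotagmin of dense-core vesicles, ran the other way: it was 10.51, 10.51 and 10.59 at PND7 and 9.50, 9.43 and 9.56 at PND14, without overlap, a fall of 1.04 ± 0.12. The other gene that fell, Sypl1, a relative of synaptophysin chosen after its values were seen, changed by -0.35 ± 0.12.

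Glutamate receptor genes moved subunit by subunit. Of 23 tested, 10 rose and 3 fell (median 0.18), and without the arrays of high Xist 6 rose and 3 fell. Among NMDA receptor subunits, Grin1, present in every such receptor, was 9.77, 9.98 and 10.06 at PND7 and 10.65, 10.70 and 10.76 at PND14, with no overlap, and rose by 0.77 ± 0.10 (adjusted p = 8.96e-06). Grin2a, the subunit of mature receptors, was 7.13, 7.31 and 7.16 and then 7.72, 7.53 and 7.36. The PND14 array of dam 1 was the highest, and the rise of 0.34 ± 0.09 (adjusted p = 0.00865) was no longer called without the arrays of high Xist. Grin2b, the subunit of young receptors, had a change of 0.06 ± 0.13 (adjusted p = 0.748), with ages that overlapped at 7.55 to 7.83 and 7.57 to 8.06. Grin2c rose by 1.28 ± 0.27, and Grin2d, prominent early in life, fell by 0.54 ± 0.13. Grin3a and the kainate receptor subunit Grik2, the other 2 that fell and named after their values were seen, changed by -0.50 ± 0.15 and -0.52 ± 0.12. Gria1, an AMPA receptor subunit, rose by 0.47 ± 0.15 (not without the arrays of high Xist), while Gria2, which makes AMPA receptors tight to calcium, had a change of 0.12 ± 0.09. Cacng8 and Cacng3, auxiliary proteins that carry AMPA receptors to synapses, rose by 0.91 ± 0.11 and 0.88 ± 0.15.

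For inhibition, 6 of 22 genes of GABA and glycine receptors and chloride transport rose (27.3%) and 2 fell (9.09%), with a median of 0.08. Among all genes 15.2% rose and 16.5% fell. Without the arrays of high Xist 2 rose and 2 fell. Slc12a5, the chloride exporter KCC2 that makes GABA inhibitory, was 11.18, 11.36 and 11.51 at PND7 and 11.89, 11.97 and 12.01 at PND14. Every PND14 array was above every PND7 array, and the rise was 0.61 ± 0.11 (adjusted p = 0.000218). Slc12a2, the chloride importer NKCC1 of young neurons, had a change of 0.06 ± 0.08 (adjusted p = 0.604), with overlapping ages. Gabrd, the subunit of receptors outside synapses, rose by 0.83 ± 0.22, and Gabra5 had a change of -0.08 ± 0.21. Glra2, the fetal glycine receptor subunit, was 9.14, 8.87 and 8.73 and then 8.15, 7.95 and 8.06, all lower, and fell by 0.86 ± 0.15. Slc6a13, which carries GABA in meningeal cells, fell by 1.09 ± 0.20 and is taken up again with the meningeal genes.

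**Figure D2:**
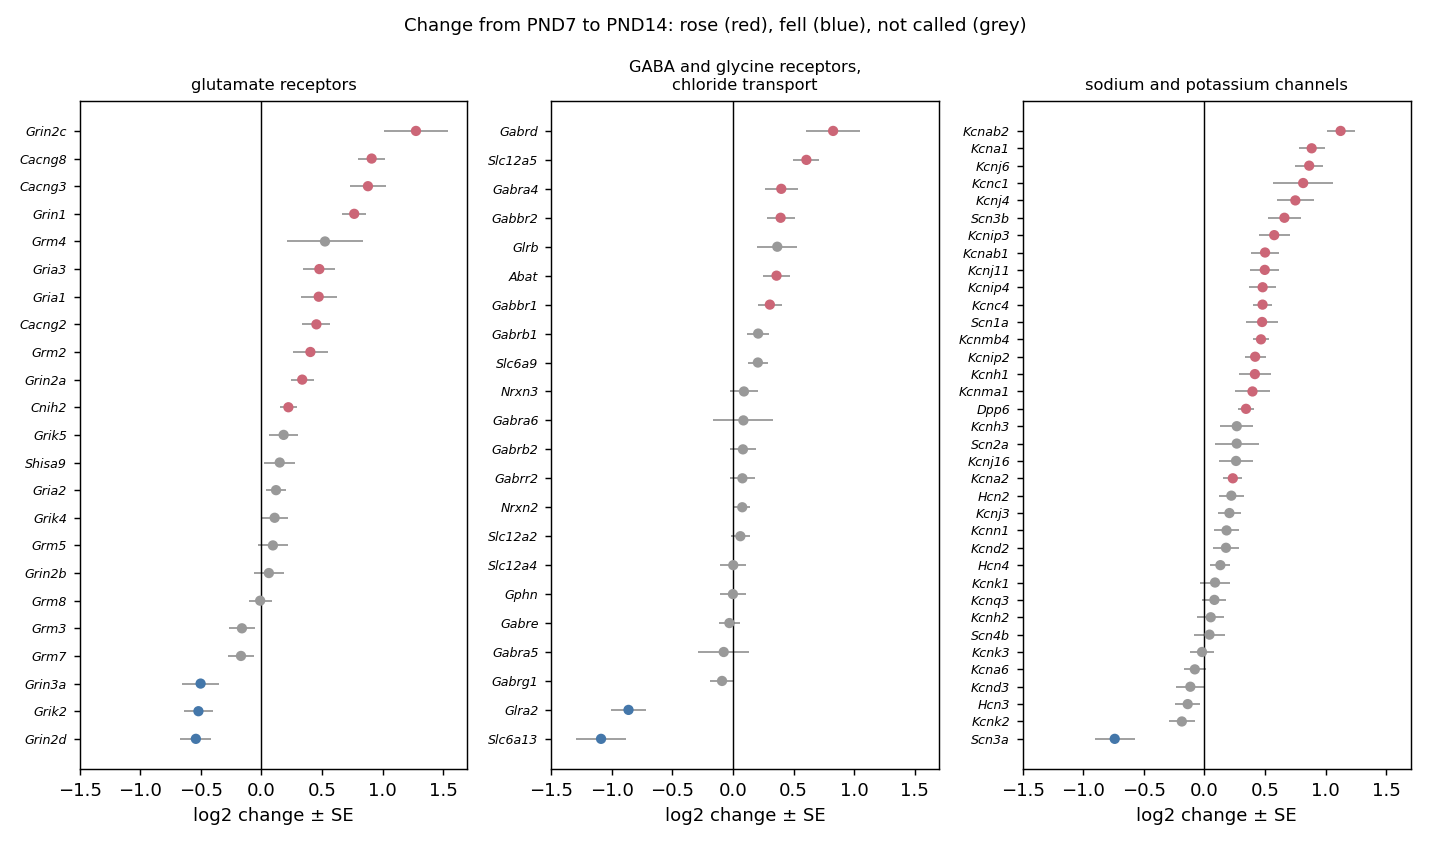
Log2 change from PND7 to PND14 (horizontal axis, with limma SE as bars) for every tested gene of 3 lists: glutamate receptors, GABA and glycine receptors with chloride transport, and sodium and potassium channels. Red points rose, blue points fell and grey points were not called; in the channel list 18 genes rose and Scn3a alone fell.

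Among 36 sodium and potassium channel genes 18 rose and 1 fell (median 0.27), and 14 of 34 rose without the arrays of high Xist. Kcnab2, a subunit that attaches to axonal potassium channels, was 8.73, 8.94 and 8.80 at PND7 and 9.89, 9.80 and 10.15 at PND14, with no overlap, a rise of 1.12 ± 0.12 (adjusted p = 6.23e-07). Kcna1, a channel next to nodes of Ranvier, rose by 0.88 ± 0.11, and Kcnj6, a channel opened by G proteins, by 0.86 ± 0.11. The other tested Kcnj6 probe set had a change of 0.11 ± 0.11 and was not called. The gene that fell was Scn3a, the sodium channel of the fetal brain, named after its values were seen, at -0.74 ± 0.17. Of 53 calcium channel and calcium signalling genes 29 rose and 1 fell (median 0.31), and 22 rose without the arrays of high Xist. Besides Camk2a, Pvalb and Hpca, this list was led by S100b, a calcium-binding protein of astrocytes, which rose by 0.97 ± 0.12. Itpr1, the calcium release channel of the endoplasmic reticulum, rose by 0.79 ± 0.09. Plcb4, the gene that fell, was chosen after its values were seen and changed by -0.39 ± 0.14, with all 6 arrays below the 40th percentile.

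The 3 genes that rose most in the comparison, Mbp, Mobp and Mag, are myelin genes. Of 26 genes for myelin proteins and lipids 19 rose and 1 fell (median 0.83), and 17 rose without the arrays of high Xist. The summed signal of the list, with Mbp included, was 8083 to 8763 in the PND7 arrays and 19161 to 21605 in the PND14 arrays. Mbp, the protein that compacts myelin, was 8.62, 9.04 and 8.60 at PND7 and 12.38, 12.45 and 12.57 at PND14. The ages were more than 3 log2 units apart, and Mbp rose by 3.71 ± 0.25 (13.1-fold, adjusted p = 7.28e-09). Mobp, another compact myelin protein, went from 6.17, 6.12 and 5.98 to 9.20, 9.59 and 9.56, a rise of 3.36 ± 0.35 (10.3-fold). At PND7 all 3 Mobp values were below the 40th percentile of an array. Mag, on the innermost membrane facing the axon, was 6.47, 6.86 and 6.35 and then 9.19, 9.32 and 9.35, a rise of 2.73 ± 0.29 with all PND14 arrays above. Cldn11, which seals myelin layers, rose by 1.88 ± 0.30, Ugt8, which makes the myelin lipid galactocerebroside, by 1.83 ± 0.30, Mog, on the outer surface, by 1.52 ± 0.32, and Cnp by 1.36 ± 0.23. The Mog means of 5.02 and 6.54 were both below that percentile, so the gene passed the filter through other groups and the size of its rise is uncertain. All 3 Mag values and the Ugt8 mean of 6.16 at PND7 were below it too. Qdpr, a pterin reductase and the 1 member that fell, was named after its values were seen and changed by -0.17 ± 0.06.

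Genes of oligodendrocyte precursors moved less. Of 12 tested, 3 rose (25%) and 1 fell (8.33%), beside 15.2% and 16.5% of all genes (median 0.22). Sox10, the factor of the whole lineage, rose by 0.71 ± 0.15, Bmp4 by 0.64 ± 0.19 and Tns3 by 0.39 ± 0.09; Bmp4 was not called without the arrays of high Xist. Vcan, a proteoglycan of precursors and young matrix, was 8.79, 8.40 and 8.47 at PND7 and 7.57, 7.41 and 7.51 at PND14, without overlap, and fell by 1.06 ± 0.17. Pdgfra, the growth factor receptor that defines precursors, lay at 9.75 to 9.84 and 9.80 to 9.84, a change of 0.01 ± 0.15 (adjusted p = 0.955).

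Cholesterol, a main lipid of myelin, is made by a long chain of enzymes. Of 21 genes of cholesterol synthesis 0 rose and 7 fell (median -0.09), and 2 fell without the arrays of high Xist. Hsd17b7, of the late sterol steps, was 7.97, 8.03 and 8.03 at PND7 and 7.17, 7.38 and 7.03 at PND14, with no overlap, a fall of 0.82 ± 0.11 (adjusted p = 1.86e-05). Acat2 changed by -0.77 ± 0.19, and Idi1 and Fdps, of the isoprenoid steps, by -0.69 ± 0.20 and -0.49 ± 0.13, the last 2 not without the arrays of high Xist. In cholesterol transport 2 of 10 rose (20%) and 1 fell (10%), beside 15.2% and 16.5% of all genes. Apoe, the lipid carrier of astrocytes, rose by 0.39 ± 0.10 and Apod by 0.90 ± 0.29. Lrp8, a receptor for Reln, fell by 0.26 ± 0.08. Neither Lrp8 nor Apod was called without the arrays of high Xist.

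Many astrocyte genes rose. Of 33 tested, 18 rose and 1 fell (median 0.41), and 10 of 32 rose without the arrays of high Xist. Ntsr2, a neurotensin receptor of astrocytes, was 7.12, 7.37 and 7.13 at PND7 and 8.84, 9.05 and 8.87 at PND14. The ages were well separated, and the rise was 1.72 ± 0.12 (3.29-fold, adjusted p = 7.28e-09). Slc1a2, the main glutamate transporter of astrocytes, went from 6.54, 6.64 and 6.43 to 7.34, 7.81 and 7.49, again without overlap, and rose by 1.01 ± 0.11. Acsl6, which activates long fatty acids, rose by 0.91 ± 0.08. Gfap, the astrocyte filament, was 10.65, 11.16 and 10.74 and then 11.69, 11.42 and 11.39; its rise of 0.65 ± 0.24 (adjusted p = 0.0445) was lost in several settings, among them the values as deposited. The water channel Aqp4 and the gap junction protein Gja1 had changes of 0.44 ± 0.17 (adjusted p = 0.052) and 0.40 ± 0.18 that did not pass. The other tested probe sets of Aqp4 had changes of 0.55 ± 0.19, which was called, and 0.31 ± 0.17, which was not. Id3, also a progenitor gene, was the 1 that fell and was named after its values were seen, at -0.51 ± 0.15.

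Of 22 microglia and macrophage genes 6 rose (27.3%) and 1 fell (4.55%), beside 15.2% and 16.5% of all genes (median 0.19). Without the arrays of high Xist 3 rose. Cx3cr1, the fractalkine receptor, was 6.81, 7.05 and 7.03 at PND7 and 7.42, 7.22 and 7.32 at PND14, apart by a small margin, and rose by 0.36 ± 0.07 (adjusted p = 0.000704). P2ry12, a receptor of surveying microglia, rose by 0.46 ± 0.08, Lyz2, a lysozyme, by 0.68 ± 0.11, and Csf1r by 0.52 ± 0.12, the last not without the arrays of high Xist. The protease gene Ctss rose by 0.86 ± 0.32 (adjusted p = 0.0477), a call lost with any 1 of the 6 arrays left out. The 1 that fell, Lpl, a lipase named after its values were seen, changed by -0.41 ± 0.13. Of 13 complement and MHC genes 5 rose and 1 fell (median 0.26), with 2 rising without the arrays of high Xist: RT1-DMb and RT1-DMa, which load peptides on class II molecules, rose by 0.49 ± 0.11 and 0.48 ± 0.14, Psmb10, of the immunoproteasome, by 0.31 ± 0.07, and Serping1, the C1 inhibitor, fell by 0.30 ± 0.10. RT1-DMa and Serping1 were not called without the arrays of high Xist.

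Of 28 vessel genes 3 rose and 3 fell (10.7% each, below the 15.2% and 16.5% of all genes; median 0.13). Myh11, a myosin of smooth muscle, rose by 0.64 ± 0.13, while Nid1, of the basement membrane, fell by 0.71 ± 0.12, Ramp2 by 0.55 ± 0.09 and the VEGF receptor Kdr by 0.55 ± 0.14. The other tested Nid1 probe set had a change of -0.09 ± 0.14 and was not called.

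Genes used as markers of the meninges and of fibroblasts fell. Of 30 tested, 16 fell and 0 rose (median -0.54), and 16 fell without the arrays of high Xist too. Their summed signal, with Ptgds included, was 15810 to 19828 at PND7 and 8530 to 11199 at PND14. Ptgds, a prostaglandin synthase of meninges and choroid plexus, was 12.41, 12.20 and 12.08 and then 11.07, 8.93 and 10.88. The PND14 array of dam 7 stood far below the other two, and the fall of 1.94 ± 0.58 (adjusted p = 0.0138) was not called without that array. Slc13a4, a sulfate transporter, fell by 1.16 ± 0.26, and Col1a2, of type I collagen, by 0.98 ± 0.26. Ttr, the thyroxine carrier made by choroid plexus, was 12.82, 8.83 and 11.76 at PND7 and 7.7, 7.47 and 6.68 at PND14. It varied widely among the PND7 arrays, lowest in dam 7, and did not overlap between ages. Its fall of 3.85 ± 1.43 (adjusted p = 0.0449) was the largest of any named gene, and the call was lost without the arrays of high Xist and when 5 of the 6 arrays were left out one at a time. All 9 choroid plexus genes had negative changes (median -0.31), though Ttr alone was called. Their summed signal was 3171 to 11095 at PND7 and 2115 to 2443 at PND14. Ttr is part of that sum and weighs heavily in it, and a sum without Ttr was not computed. Of 5 red cell genes 2 fell. Hbb, a globin, was 11.89, 12.38 and 12.21 and then 11.08, 10.33 and 11.13, a fall of 1.31 ± 0.29, and Epb41 fell by 0.36 ± 0.10, the latter not without the arrays of high Xist. Among the PND7 arrays Hbb was highest in dam 7, where Ttr was lowest. The part of adjoining tissue and blood in other changes, such as those of Slc6a13, Ptgds, Igfbp2 and the collagens, was not tested.

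Genes that shape the cell's framework changed in both directions. Of 35 cytoskeleton and axon growth genes 5 rose (14.3%) and 10 fell (28.6%), beside 15.2% and 16.5% of all genes (median -0.07). The neurofilaments of mature axons rose: Nefh, the heavy subunit, was 8.52, 8.43 and 8.43 at PND7 and 10.07, 10.15 and 10.20 at PND14, with no overlap, a rise of 1.68 ± 0.28 (adjusted p = 0.00011). Nefl, the light subunit, rose by 1.10 ± 0.11, Nefm, the medium subunit, by 0.69 ± 0.11 and Tuba4a, an adult tubulin, by 1.24 ± 0.13. Dpysl3 and Gap43, already given, were among the 10 that fell. Of 31 axon guidance and adhesion genes 6 rose (19.4%) and 7 fell (22.6%), near the shares of all genes (median -0.02). Without the arrays of high Xist 2 rose and 4 fell. Cntnap1, which joins axon and myelin beside nodes, went from 7.94, 8.12 and 7.97 to 9.13, 9.34 and 9.02, well apart, and rose by 1.16 ± 0.14. Sema4d, a semaphorin of oligodendrocytes, rose by 0.64 ± 0.18, and Slit3 and Sema5a rose by 0.53 ± 0.12 and 0.51 ± 0.19, neither without the arrays of high Xist. The Sema5a call was lost in 8 of 15 alternative settings, among them the values as deposited and the 12 hippocampus arrays alone.

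Of 38 extracellular matrix genes 7 rose (18.4%) and 10 fell (26.3%), beside 15.2% and 16.5% of all genes (median -0.18). Gpc2, a glypican of growing axons, was 8.47, 8.04 and 8.19 at PND7 and 6.66, 6.40 and 6.56 at PND14. Its ages did not overlap, and it fell by 1.69 ± 0.13 (3.24-fold lower, adjusted p = 3.07e-08), with Tnc and Vcan next. Nptx1, a pentraxin that gathers AMPA receptors, rose by 1.04 ± 0.20. Acan, the core of perineuronal nets, rose by 0.26 ± 0.08, with ages that overlapped (6.65 to 6.83 and 6.82 to 7.16) and a call lost without the arrays of high Xist.

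Energy genes rose. Of 30 genes of glycolysis and lactate handling 18 rose and 0 fell (median 0.33), and 15 rose without the arrays of high Xist. Eno2, the enolase of neurons, was 10.17, 10.28 and 10.01 at PND7 and 10.98, 11.02 and 10.80 at PND14, with no overlap, a rise of 0.78 ± 0.09 (adjusted p = 3.34e-06). Ckmt1, a mitochondrial creatine kinase, rose by 0.97 ± 0.12, Pgam1 by 0.75 ± 0.08 and Pdk2, which restrains pyruvate entry into mitochondria, by 0.69 ± 0.09. Of 55 genes of oxidative phosphorylation and the citrate cycle 17 rose and 0 fell (median 0.17), while 52 of the 55 had a positive change, and 9 rose without the arrays of high Xist. Idh3a, of the citrate cycle, rose by 0.47 ± 0.10, Mdh1 by 0.45 ± 0.10 and the respiratory subunits Cox5a and Cox6a1 by 0.49 ± 0.15 and 0.36 ± 0.08. Cox5a was not called without the arrays of high Xist.

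The machinery of protein and RNA production went down by small, even steps. Of 29 ribosomal protein genes 27 fell and 0 rose (93.1%, median -0.45), and 24 fell without the arrays of high Xist. Rps24 was 11.86, 11.76 and 11.80 at PND7 and 11.02, 11.28 and 11.20 at PND14, without overlap, and fell by 0.64 ± 0.08 (adjusted p = 2.45e-06). Rpl12 fell by 0.63 ± 0.08, Rpl24 by 0.60 ± 0.13 and Rps15 by 0.57 ± 0.06. Ribosomal protein genes have many near-identical pseudogenes, so single members are uncertain. Of 45 splicing factor and chromatin genes 28 fell and 2 rose (median -0.33), and 21 fell without the arrays of high Xist. Hnrnpa1, an RNA-binding splicing factor, was 10.47, 10.36 and 10.30 and then 9.54, 9.56 and 9.58, all lower, a fall of 0.82 ± 0.09 (adjusted p = 2.2e-06). Hmgb3, a chromatin protein of progenitors, fell by 0.81 ± 0.10 and Hnrnpab by 0.78 ± 0.08, while Hdac11, a deacetylase found in oligodendrocytes and neurons, rose by 0.78 ± 0.15.

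**Figure D3:**
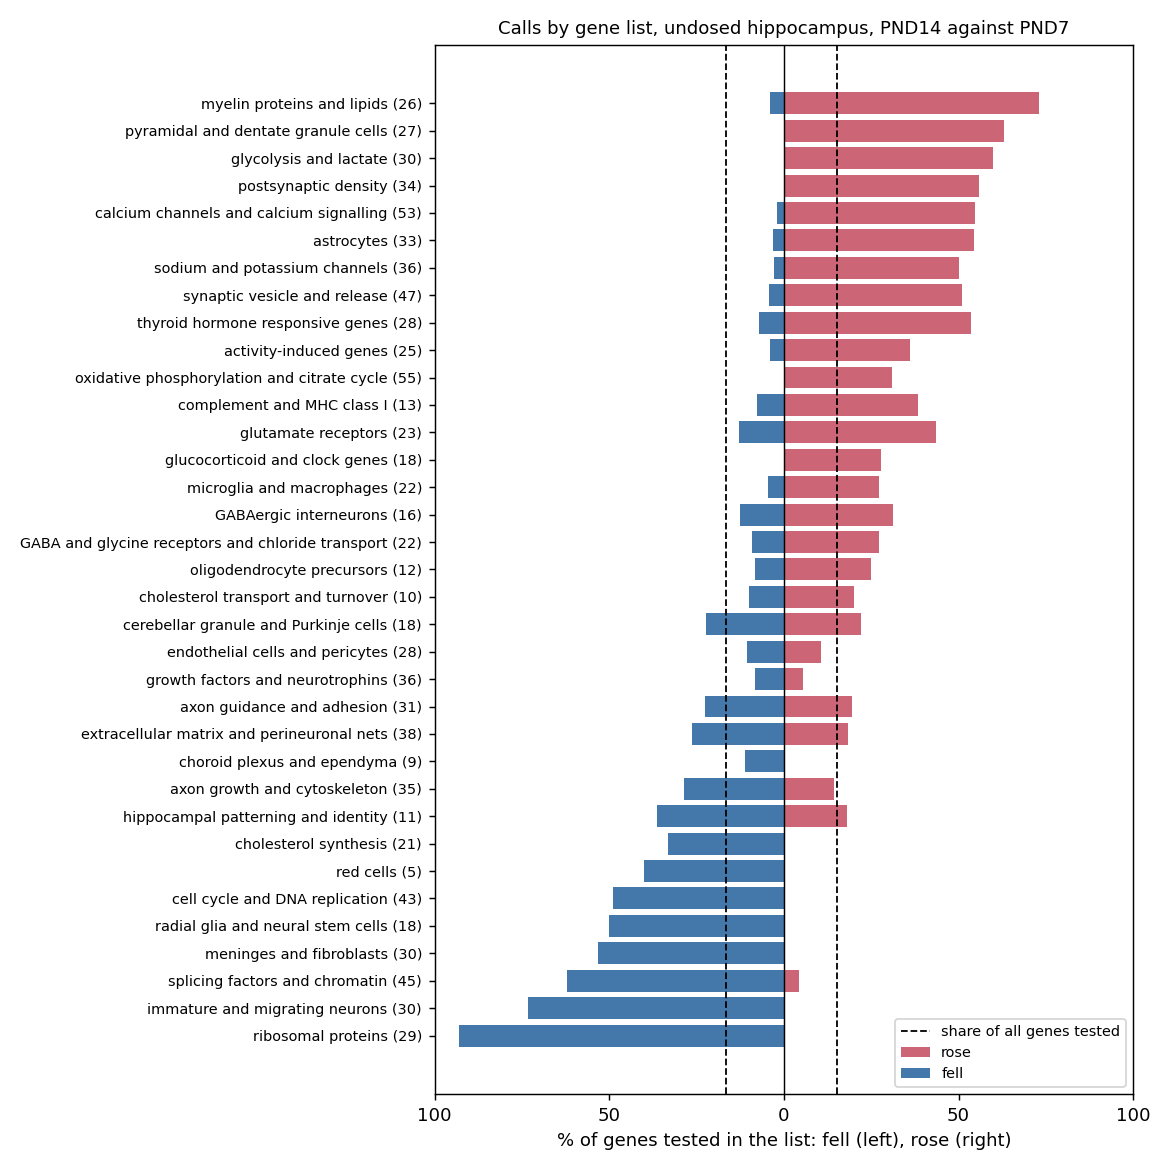
Percentage of the tested genes of each list (number in brackets) that rose (red, right) or fell (blue, left) from PND7 to PND14 in undosed hippocampus. Dashed lines mark the shares over all genes, 15.2% risen and 16.5% fallen; ribosomal protein genes reach 93.1% fallen and myelin genes 73.1% risen.

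Thyroid hormone drives much of brain maturation at these ages, and Aroclor 1254 is known to lower circulating thyroxine. In these undosed pups 15 of 28 genes known to respond to the hormone rose and 2 fell (median 0.44), and 13 rose without the arrays of high Xist. Of the 15, 3 are myelin genes already given. Klf9, a transcription factor directly induced by the hormone, was 8.71, 9.22 and 9.03 at PND7 and 10.13, 10.25 and 10.28 at PND14. The ages were apart by almost 1 unit, and Klf9 rose by 1.23 ± 0.12 (adjusted p = 4.32e-07). Hr, a corepressor also induced by it, was 7.24, 7.46 and 7.51 and then 7.91, 7.98 and 7.95, higher in every PND14 array, with a change of 0.54 ± 0.22 that did not pass (adjusted p = 0.0677). Dbp, a clock output factor, went from 6.66, 6.97 and 6.68 to 7.72, 7.90 and 7.90 and rose by 1.07 ± 0.09, with no overlap. Its relative Hlf rose by 0.86 ± 0.10, Bhlhe41, a repressor in the clock, by 0.81 ± 0.11, and Nr3c2, the mineralocorticoid receptor, by 0.66 ± 0.13. In all, 5 of 18 clock and glucocorticoid genes rose and 0 fell (median 0.16), with 4 rising without the arrays of high Xist.

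Of 25 genes whose RNA is induced by neuronal activity 9 rose and 1 fell (median 0.17), and 7 rose without the arrays of high Xist. Egr1, an immediate early transcription factor, was 8.73, 8.83 and 8.99 at PND7 and 10.05, 10.17 and 9.89 at PND14, with no overlap, and rose by 1.18 ± 0.23 (adjusted p = 0.000482). Vgf, a secreted neuropeptide precursor, went from 9.33, 9.58 and 9.60 to 10.33, 10.42 and 10.19, without overlap, and rose by 0.81 ± 0.15. Egr4 rose by 0.77 ± 0.18. The gene that fell, Nr4a3, an orphan nuclear receptor named after its values were seen, changed by -0.57 ± 0.17, while its relative Nr4a1, also chosen after its values were seen, was 7.47, 7.59 and 7.53 and then 8.14, 8.35 and 7.92 and rose by 0.61 ± 0.13. In the promoter search described above, 7 of the 8 risen members with a window held CGTCA, the core of the site of the activity-regulated factor CREB (87.5%), against 19.0% of all genes. CGTCA was also in 53.8% of fallen splicing and chromatin genes, in 10 of 20 risen vesicle genes and in 42.9% of fallen cholesterol synthesis genes, with 12.5% as the lowest of the 9 lists. The same risen activity genes held GCGTG at 75.0% against 27.2% of all genes, and 4 of the 8 held TATAAA against 13.1%, so CGTCA does not stand alone. The windows of Nr4a1 and Vgf are printed because Nr4a1 holds 4 copies and Vgf the full palindrome TGACGTCA, which 1.7% of all genes hold; capitals mark CGTCA and its reverse TGACG, which overlap in Vgf.
Nr4a1 (chr7:134259888-134260137, plus strand): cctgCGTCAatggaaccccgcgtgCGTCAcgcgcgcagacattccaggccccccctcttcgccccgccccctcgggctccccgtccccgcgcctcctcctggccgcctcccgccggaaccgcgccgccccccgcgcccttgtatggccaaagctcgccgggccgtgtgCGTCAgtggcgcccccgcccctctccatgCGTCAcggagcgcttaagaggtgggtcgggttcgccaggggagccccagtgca
Vgf (chr12:25277021-25277270, minus strand): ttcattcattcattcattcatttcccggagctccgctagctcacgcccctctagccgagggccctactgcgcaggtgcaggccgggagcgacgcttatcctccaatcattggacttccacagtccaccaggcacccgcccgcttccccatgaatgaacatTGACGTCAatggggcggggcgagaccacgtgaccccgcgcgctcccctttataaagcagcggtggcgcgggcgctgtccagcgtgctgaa
The match of letters says nothing of binding in this tissue.

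Of 36 growth factor genes 2 rose (5.56%) and 3 fell (8.33%), below the 15.2% and 16.5% of all genes. Igfbp2 and Igfbp5, which bind insulin-like growth factors, fell by 0.85 ± 0.17 and 0.82 ± 0.16, and Bmp7 by 0.58 ± 0.14. The other tested probe sets of Igfbp5 had changes of 0.15 ± 0.13 and -0.33 ± 0.14 and were not called. Bdnf, the neurotrophin of active synapses, did not pass the filter on low signal: its probe sets had means of 5.57 and 5.33 at PND7 and of 6.54 and 5.45 at PND14. Among 11 patterning genes 2 rose (18.2%) and 4 fell (36.4%). Meis2 and Lhx2, homeobox factors of the early forebrain, fell by 1.01 ± 0.23 and 0.73 ± 0.12, from 7.00, 7.09 and 7.29 to 6.11, 6.40 and 5.85 for Meis2, with no overlap. Of 18 genes used as markers of cerebellar granule and Purkinje cells, 4 rose and 4 fell (22.2% each, median 0.14). Many of the 18 are also expressed in hippocampus. Pvalb and Itpr1 led upward, and Neurod1, a factor of young granule neurons, led downward at -0.66 ± 0.11.

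The age change differed between hippocampus and cerebellum for 1352 of 7474 genes (18.1%), of which 727 were higher (9.73%) and 625 lower (8.36%) in hippocampus, tested as the difference of the 2 changes in the same fit. Among genes that rose in hippocampus 358 (31.4%) had a called difference, and among those that fell 299 (24.3%). The same hippocampus arrays enter the age call and the difference, so these shares cannot be set against the 18.1% of all genes. Fibcd1 moved in opposite directions: beside its rise in hippocampus, cerebellum went from 7.15, 6.99 and 7.11 at PND7 (dams 1, 7 and 13) to 5.69 and 5.36 at PND14 (dams 1 and 7). The changes of 1.68 and -1.56 differed by 3.24 ± 0.22 (adjusted p = 2.09e-08). Its values in PND7 hippocampus and PND14 cerebellum were below the 40th percentile of an array, so the size of this difference is uncertain. Syt4 crossed the other way, with 8.66, 8.98 and 8.91 and then 10.37 and 10.43 in cerebellum, so that a fall of 1.04 stood beside a rise of 1.55, a difference of -2.58 ± 0.18. Dcx fell by 1.82 in hippocampus, while in cerebellum its change was -0.18 (10.86 to 11.02 and then 10.66 to 10.84), a difference of -1.64 ± 0.19 (adjusted p = 6.21e-06). Wipf3 and Wfs1 had cerebellar changes of 0.02 and -0.04 beside rises of 1.96 and 1.64, and differed by 1.94 ± 0.19 and 1.68 ± 0.35. Mbp rose in both tissues, by 3.71 and 1.71, and was already at 11.01 to 11.82 in PND7 cerebellum; its changes differed by 2.01 ± 0.38 (adjusted p = 0.00122), a call lost without the arrays of high Xist, as were those of Wfs1 and Htr2c. For Mobp the 2 rises, 3.36 and 3.08, gave a difference that did not pass (adjusted p = 0.76).

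Further differences between the tissues included genes used as markers of neuron types. Pvalb rose by 4.03 in cerebellum, from 6.37 to 6.61 up to 10.34 and 10.74, so its hippocampal rise was lower by 2.36 ± 0.30. Gabra6 rose by 3.95 in cerebellum beside a change of 0.09 in hippocampus, and Slc1a6, the glutamate transporter of Purkinje cells, rose there by 1.86 while it fell by 0.66 in hippocampus, where its means of 6.79 and 6.13 were below the 40th percentile of an array. Nefm fell by 1.06 in cerebellum while it rose by 0.69 in hippocampus, a difference of 1.75 ± 0.16, and Epha4, a guidance receptor, fell there by 1.47 beside a hippocampal change of 0.25. Rasl10a, a small GTPase, rose by 1.42 in hippocampus beside a change of -0.31, and Htr2c, a serotonin receptor, had changes of 0.78 and -1.46. The Rasl10a mean in PND7 hippocampus, 5.94, was below the 40th percentile of an array. By limma the hippocampal change of Htr2c was not called (adjusted p = 0.0806). By list, 19 of 43 cell cycle genes had a called difference, all higher in hippocampus, with median changes of -0.37 there and -0.92 in cerebellum. In hippocampus 11 of these 43 had means below the 40th percentile of an array at both ages, so the size of that difference is uncertain. The ribosomal list had 0 called differences, with medians of -0.45 and -0.31. Of 30 immature neuron genes 14 had a called difference: 13 were lower in hippocampus and 1 higher, Basp1, a growth cone protein named after its values were seen (-0.02 beside -0.54). The list medians were -0.45 and -0.14. The number of called differences depended on few arrays: it was 1890 probe sets (18.3%, with 8.64% higher and 9.65% lower), 1023 without the cerebellum PND14 array of dam 1, 1150 without that of dam 7, and 418 without the arrays of high Xist, which leave 1 PND14 cerebellum array.

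**Figure D4:**
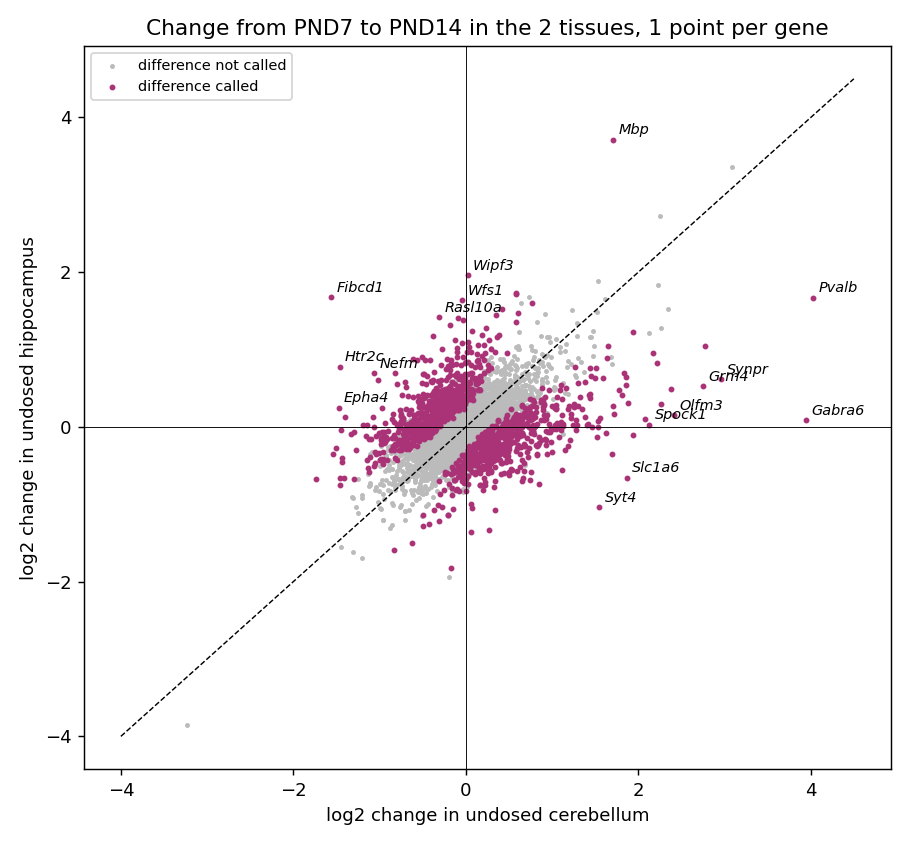
Log2 change from PND7 to PND14 in undosed hippocampus (vertical axis) against undosed cerebellum (horizontal axis), 1 point per gene. Purple points have a called difference between the tissues, the dashed line marks equal change, and names mark the 16 genes with the largest called differences, from Fibcd1 (1.68 and -1.56) to Gabra6 (0.09 and 3.95).

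In hippocampus of pups from dosed dams 1084 genes rose with age (14.5%) and 1082 fell (14.5%). Of the 1139 that rose in undosed pups 704 also rose there, 61.8% of the undosed list and 64.9% of the dosed list, and 641 of the 1232 that fell also fell (52.0% and 59.2%). No array is shared by these age changes. Mbp rose by 3.71 in undosed and 3.26 in dosed pups, Dcx fell by 1.82 and 1.58, and Klf9 rose by 1.23 and 1.42, with no called difference. The difference itself was called for 14 probe sets (0.136%), 13 higher (0.126%) and 1 lower (0.00968%) in dosed pups. These gave 7 genes (0.0937%), 6 higher (0.0803%) and 1 lower (0.0134%): Qpct, Acbd5, Slc4a10, Dcn, Zfp386, Socs6 and Apob. Slc4a10, a sodium-bicarbonate transporter of neurons, was 8.39, 8.46 and 8.04 and then 8.74, 8.73 and 8.47 in undosed pups, and 7.73, 7.42 and 7.54 and then 8.64, 8.90 and 8.84 in dosed pups (dams 12, 15 and 18). Dosed pups were lower at PND7 and overlapped undosed pups at PND14, and the age changes of 0.35 and 1.23 differed by 0.88 ± 0.17 (adjusted p = 0.0466). Zfp386, a zinc finger gene, fell by 0.50 in undosed pups and rose by 0.32 in dosed pups, a difference of 0.83 ± 0.16. By limma the count was 0 without the arrays of high Xist and 0 under the stricter filter, while 1468 probe sets had an unadjusted p under 0.05 with all 23 arrays. The 7 genes each lost the call in 13 to 16 of 18 or 19 alternative settings, among them the values as deposited and the 12 hippocampus arrays alone.

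**Figure D5:**
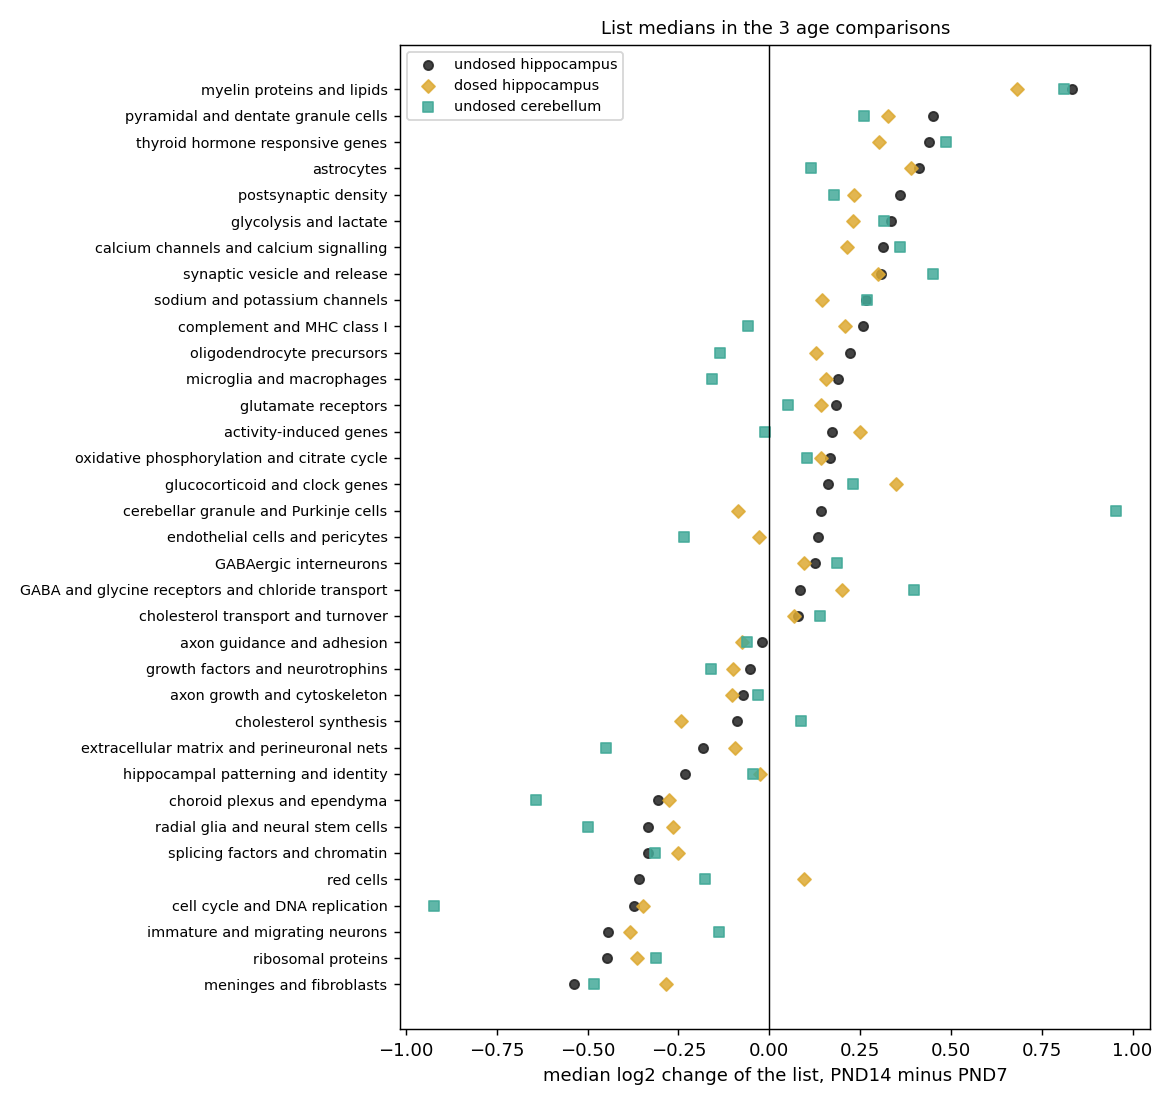
Median log2 change from PND7 to PND14 (horizontal axis) of each gene list in undosed hippocampus (black circles), dosed hippocampus (yellow diamonds) and undosed cerebellum (green squares). Cell cycle genes sit at -0.37, -0.35 and -0.92 in that order, and immature neuron genes at -0.45, -0.38 and -0.14.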

How the data were processed

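The deposited values are log2 expression values per probe set of Affymetrix rat arrays, taken to be log2 because of the span of the values. The authors' software and normalization: not given in the sources used here. Of 15923 probe sets 57 controls were left out, and 12783 of the other 15866 had 1 gene symbol in the platform table. The 23 arrays were quantile normalized, and probe sets above an array's 40th percentile in at least 3 arrays were tested with limma 3.58.1 in R 4.3.3: 1 mean per group over 8 groups, empirical Bayes moderation, 2-sided p-values and Benjamini-Hochberg adjustment. With 3 arrays per group, and 2 in undosed PND14 cerebellum, the number of arrays limits precision. Of 1026 genes with several tested probe sets, 3 had opposite calls and 288 differed in call. Among called genes named above, Sox4, Dlg4, Vamp1 and Idi1 each had another tested probe set that was not called. Those changes were 0.11, 0.01, 0.23 and -0.47. The same held for Top2a, Gad1, Kcnj6, Nid1 and Igfbp5, as given above. Named genes are called genes without overlap between ages, the top 15 by rise and the top 15 by fall, a fixed set, up to 4 called members per list, and the 8 largest differences in each direction. Members and lists were chosen with earlier results of these data known. Dam numbers pair arrays by litter per the labels; deviations of littermates correlated at -0.17, 0.04 and 0.07. Promoter motifs searched were CCAAT for NF-Y, TTTGAA for the cell cycle homology region, TATAAA for the TATA box, GGGCGG for Sp1, TTTGGCGC and also TTTCCCGC for E2F, ACAATG with its relatives ACAAAG as well as CATTGTT for Sox factors, TGACGTCA along with its core CGTCA for CREB, CAGCTG together with CACGTG for E-boxes, TTCCGG plus the longer CCGGAAG for ETS factors, GCGTG for the dioxin response element, the string TCACCCCAC, the NRF1 site and the serum response element. Alternatives were the deposited values, no filter, a stricter filter, an intensity trend, dam blocks, fewer arrays and each array left out.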

Additional observations from a re-analysis of the deposited data

Results flagged for a closer look

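Differences between the age changes of undosed hippocampus and undosed cerebellum passed limma's test of the difference for 16 genes named by size (log2, hippocampus minus cerebellum). The change was higher in hippocampus for Fibcd1 (3.24), Htr2c (2.24), Mbp (2.01), Wipf3 (1.94), Nefm (1.75), Rasl10a (1.73), Epha4 (1.72) and Wfs1 (1.68). It was lower for Gabra6 (-3.86), Syt4 (-2.58), Slc1a6 (-2.52), Pvalb (-2.36), Synpr (-2.35), Olfm3 (-2.26), Grm4 (-2.23) and Spock1 (-2.10).

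Between hippocampus of dosed and undosed pups the age change differed by the same test for Qpct (1.26), Acbd5 (0.91), Slc4a10 (0.88), Dcn (0.85), Zfp386 (0.83), Socs6 (0.70) and Apob (-0.52), as dosed minus undosed. Qpct fell by 1.21 in undosed pups and had a change of 0.05 in dosed pups. Each of these 7 calls was lost in 13 to 16 of 18 or 19 alternative settings, among them the values as deposited, the 12 hippocampus arrays alone and the fit without the arrays of high Xist.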

How the results depend on the processing

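The count of 3286 called probe sets for the age change lay between 2559 and 2769 with single arrays left out and between 2876 and 4024 in the other settings, except without the arrays of high Xist, which gave 1998 (980 higher and 1018 lower). Every called gene still tested kept its direction in each of these settings. The share of higher calls was 42.7% with the values as deposited and 46.7% as reported in the fit above. A replicate block changed no count of age calls by over 1.5 times: dam as a random block gave 3420 (consensus correlation 0.04), and a fixed block over the 6 arrays 3894. For the tissue difference, 1890 became 418 (183 higher, 235 lower) without the arrays of high Xist and 2977 (1469 and 1508) with the 4 undosed groups alone. With single arrays left out it was 1023 to 1735 (448 to 802 higher, 575 to 933 lower), lowest without the cerebellum PND14 array of dam 1 and next, at 1150, without that of dam 7. For the dose difference, 14 became 3 (all higher) with the deposited values and with the 12 hippocampus arrays, 4 with a trend (0 lower), and 0 with the stricter filter or without the arrays of high Xist; single arrays left out gave 0 to 56 (0 to 35 higher, 0 to 21 lower), highest without the dosed PND7 array of dam 18. No filter and the random replicate block each gave 2 lower. Genes that were not called changed sign in places: without the arrays of high Xist Pdgfra was -0.022, Grin2b -0.021 and Spock1 -0.058, and with single arrays left out Prox1 ranged from -0.13 to 0.025, Pdgfra from -0.015 to 0.030, Grin2b from -0.082 to 0.16, Gabra6 from -0.072 to 0.20 and Spock1 from -0.020 to 0.071. Without the arrays of high Xist the age change was also not called for Csf1r, Epb41, Cox5a, RT1-DMa, Serping1, Acbd5, Dcn, Socs6 and Slc4a10. Beyond the smaller number of arrays in those settings, the cause was not tested.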
